A study of Homo sapiens with 9 samples.

Results

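MIR210HG is the long non-coding RNA gene that hosts the microRNA miR-210. Its members were the rows of the count table whose RefSeq transcript belongs to MIR210HG, which gave 1 transcript, NR_038262.1, of the 159067 listed, and 1 gene of the 35002 named. The gene was chosen from these counts, by treatment and by dose, so its levels are given as a description, with no test. RNA was sequenced from U-87 cells, an established human glioblastoma line, in 3′ mRNA libraries that read the end of each transcript, after 24 h of exposure. The treatments were evernic acid (EA), a lichen metabolite, at 30 µM (EA30) or 45 µM (EA45), temozolomide (TMZ), the alkylating drug used against glioblastoma, at 600 µM (TMZ600), and 3 combinations. These were TMZ320EA35 (320 µM TMZ and 35 µM EA), TMZ380EA20 (380 µM TMZ and 20 µM EA) and TMZ580EA20 (580 µM TMZ and 20 µM EA). Each treatment had 1 library, so no treatment had a replicate. The 3 control libraries are labelled as having had no treatment, and the labels name no vehicle. The labels do not say whether the controls came from separate cultures, so p-values measure only the spread between these libraries, which may be technical.

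MIR210HG is transcribed under the hypoxia-inducible factors (HIF), which bind short motifs near the genes they switch on when oxygen is low. Its transcript is the precursor from which the miR-210 hairpin is cut, and miR-210 is among the microRNAs most regularly induced by hypoxia in tumours. Mature miR-210 acts on messenger RNAs for iron-sulfur cluster assembly, mitochondrial respiration and the cell cycle, and the long host RNA has also been studied as a marker of hypoxia in glioma.

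The sequences that tie MIR210HG to miR-210 are shown first, from RefSeq on GRCh38.p14. The hairpin is shown with its 2 mature arms in capitals, and each mature arm with its seed, bases 2 to 8, in capitals. The 2 arms have different seeds.
hairpin: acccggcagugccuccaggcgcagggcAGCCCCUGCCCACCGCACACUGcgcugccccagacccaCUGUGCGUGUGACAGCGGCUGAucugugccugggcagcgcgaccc
miR-210-3p: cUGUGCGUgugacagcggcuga
miR-210-5p: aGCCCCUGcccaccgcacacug

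The gene lies at chr11:565657-568457 on the minus strand, a span of 2801 bases, and the hairpin at chr11:568089-568198 on the same strand. The hairpin begins 259 bases after the start of the gene. GENCODE v29 lists 4 transcripts of MIR210HG with 2 exons each, and in all 4 the hairpin lies inside the intron. Apart from MIR210, no other gene of that annotation overlaps MIR210HG on either strand. Reads of the spliced, polyadenylated MIR210HG transcript therefore do not contain the hairpin. MIR210 itself was listed at 0 in all 9 libraries, in an assay that is not made to capture microRNAs, so the level of miR-210 was not measured.

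**Figure D1:**
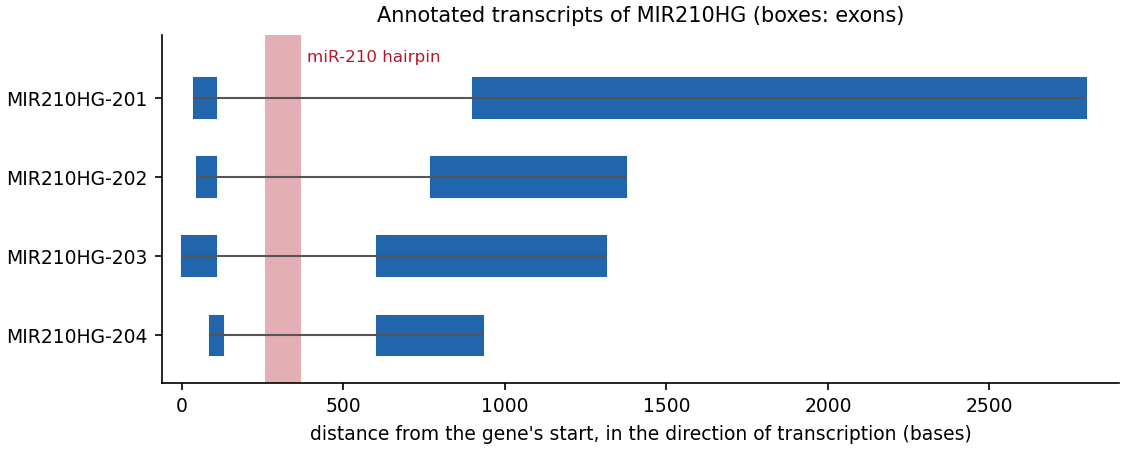
Annotated transcripts of MIR210HG by distance from the gene's start in bases, with exons as boxes and introns as lines. The shaded miR-210 hairpin starts 259 bases after the gene's start and lies inside the intron of all 4 transcripts.

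The promoter is shown because HIF motifs were searched in it. The window held 250 bases before the start and 50 after it, at chr11:568408-568707 on the minus strand, and is printed in the direction of the gene with the motifs in capitals.
MIR210HG promoter: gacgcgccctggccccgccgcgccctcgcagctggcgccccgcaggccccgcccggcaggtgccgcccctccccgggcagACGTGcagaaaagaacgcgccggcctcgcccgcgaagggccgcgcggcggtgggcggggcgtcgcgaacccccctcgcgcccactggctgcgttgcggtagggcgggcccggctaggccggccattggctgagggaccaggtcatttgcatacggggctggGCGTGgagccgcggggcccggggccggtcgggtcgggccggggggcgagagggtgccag
ACGTG and GCGTG, the core letters of the hypoxia response element, were searched on both strands. ACGTG was found 170 bases before the start and GCGTG 9 bases before it, both on the strand of the gene. Of 35116 promoters of the same length, 48.4% held at least 1 such motif and 23.1% at least 2. The MIR210HG promoter had a GC content of 80%, against a median of 58.7%. A match is a stretch of letters and shows no binding.

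The libraries were shallow. The controls held 269057, 259753 and 285248 counts, and the treated libraries between 213566 and 490235. Of the listed transcripts, 5850 were counted at all. A count of 0 allows up to 3 counts, which on the scale used for the levels is 6.75 CPM (counts per 1000000, scaled as described with the levels) in EA30, the deepest library, and 14.5 CPM in TMZ320EA35, the shallowest. Intervals and such limits cover counting error only, since reads copied in PCR are not independent molecules.

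The share of genes with a count differed between stretches of the genome. In the first 1 Mb of chromosome 11, 8 of 11 coding genes with a single listed transcript had a count (72.7%), and 6 had a mean of at least 10. Over the rest of chromosome 11 the share with a count was 17.9%, and over all 4906 such genes 21.6%. These shares leave out genes with several listed transcripts. Within 100 kb of MIR210HG, 11 of the 15 listed genes had several, and 0 of these 11 had a count. Of the other 4, coding or not, 2 had a count, and 0 had a mean of at least 10. The genes with high counts in the first 1 Mb lay further away and included TALDO1, an enzyme of the pentose phosphate pathway, and RPLP2 and POLR2L, subunits of the ribosome and of RNA polymerase. The submitters' processing notes name hg38, and whether the reads and the gene models were on the same build was not tested. Names of transcripts, that of MIR210HG included, are therefore given as the table lists them, with that doubt. A 0 was not read as absence.

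MIR210HG was counted in all 9 libraries. The controls held 160, 182 and 203 counts. EA30 held 35 counts, EA45 11, TMZ320EA35 1, TMZ380EA20 12, TMZ580EA20 7 and TMZ600 24. All 6 treated libraries lay below all 3 controls, with no overlap, although 5 of the 6 had larger totals than every control. Of the 618 transcripts tested (mean count 10 or more), 11.0% had all 6 treated libraries below every control. MIR210HG was chosen on this contrast, so nothing is read from that share.

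Scaled with TMM (trimmed mean of M values, which sets the libraries to a common composition), the controls stood at 546, 650 and 652 CPM, a mean of 616 ± 60.5 (SD, n = 3). EA30 stood at 78.8 CPM (95% Poisson interval 54.9 to 110), EA45 at 36.6 (18.2 to 65.4) and TMZ600 at 69.6 (44.6 to 104). TMZ320EA35 stood at 4.85 CPM (0.123 to 27.0), TMZ380EA20 at 36.5 (18.9 to 63.7) and TMZ580EA20 at 22.2 (8.94 to 45.8). The highest treated library, EA30, stood at 14.4% of the lowest control. The controls varied by 9.82% of their mean, and their MIR210HG counts differed from each other by 1.69 times the variance that counting alone gives. Over all transcripts with enough counts (616 to 637 degrees of freedom), the pairs of controls differed by 3.55 to 5.79 times that variance, so the counting intervals are narrower than the spread between libraries. Less MIR210HG RNA per cell and fewer cells that carry it cannot be told apart in bulk RNA.

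**Figure D2:**
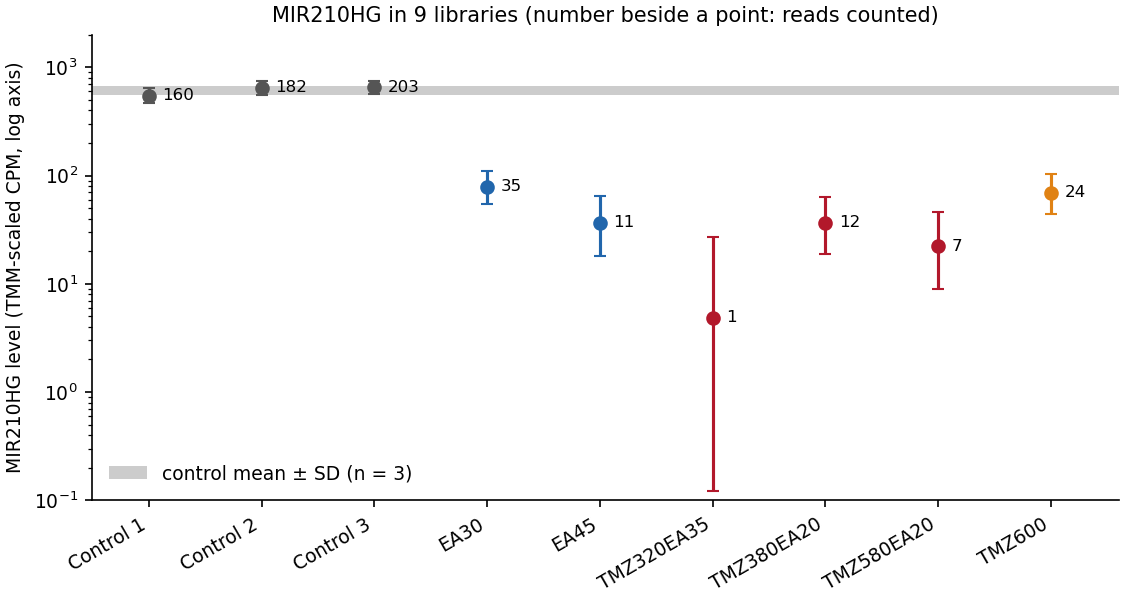
MIR210HG level in TMM-scaled CPM (log axis) in each of the 9 libraries, with 95% Poisson intervals and the number of counts beside each point. The grey band is the control mean ± SD (616 ± 60.5, n = 3), and the 6 treated libraries lie between 4.85 and 78.8 CPM.

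Relative to the summed controls, MIR210HG was 7.82-fold lower in EA30 (counting interval 5.56 to 11.4) and 16.9-fold lower in EA45 (9.35 to 34.0). It was 8.85-fold lower in TMZ600 (5.89 to 13.9). In the combinations it was 16.9-fold lower in TMZ380EA20 (9.59 to 32.9) and 27.7-fold lower in TMZ580EA20 (13.4 to 69.3). TMZ320EA35, with 1 count, was 127-fold lower with an interval of 22.7 to 5033. In the edgeR fit the log2 fold changes were -2.97 (SE 0.36) for EA30, -4.08 (SE 0.43) for EA45, -3.15 (SE 0.38) for TMZ600, -4.08 (SE 0.43) for TMZ380EA20, -4.79 (SE 0.47) for TMZ580EA20 and -6.99 (SE 0.66) for TMZ320EA35. With the 6 treatments taken as 1 group the log2 fold change was -3.83 (SE 0.43). Those 6 libraries differ in agent and dose and are not replicates of 1 condition. The SE and adjusted p-values of that fit, here and below, therefore mix differences between treatments with noise. The spread behind the single treatments came from the controls, and a lone treated library was assumed to vary like them.

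From low to high the order was TMZ320EA35, TMZ580EA20, TMZ380EA20, EA45, TMZ600, EA30 and then the controls. Between each treated library and its next neighbour in that order, the counting interval of the ratio held 1, which is a description and does not show that they were alike. The ratio of EA45 to TMZ380EA20 was 1.00 (0.401 to 2.48), that of EA30 to TMZ600 was 1.13 (0.654 to 1.99), and that of TMZ600 to EA45 was 1.90 (0.898 to 4.31). The order turned with the scaling for EA30 and TMZ600 and for EA45 and TMZ380EA20, while TMZ600 stood above EA45 under all 5 scalings run. Plain totals put TMZ600 (78.9 CPM) above EA30 (71.4), and TMZ380EA20 stood above EA45 with DESeq2's size factors (37.7 and 36.7 CPM) and with mitochondrial transcripts left out (83.2 and 81.5). TMZ320EA35 was the lowest and TMZ580EA20 the next lowest under all 5 scalings run. For pairs close in one dose, the ratios are given as a description of single libraries, with intervals that leave out the spread between cultures. The ratio of EA30 to EA45 was 2.15 (1.07 to 4.70), and that of TMZ600 to TMZ580EA20, which had nearly as much TMZ with EA added, was 3.13 (1.31 to 8.61). The ratio of EA30 to TMZ320EA35, which had 35 µM EA with TMZ added, was 16.3 (2.73 to 660). TMZ380EA20 and TMZ580EA20, with the same EA, had a ratio of 1.64 (0.596 to 4.92). With 1 library a treatment, and a gene chosen by dose, no difference between doses was tested.

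The doses were put into 1 model with a slope for each agent. MIR210HG had a log2 slope of -0.98 (SE 0.087) per 10 µM EA and of -0.54 (SE 0.059) per 100 µM TMZ. Without each library in turn the EA slope lay between -1.06 and -0.94 and the TMZ slope between -0.56 and -0.52. The control mean moved by both slopes gave 79.5 CPM for EA30, 28.6 for EA45, 65.8 for TMZ600, 38.2 for TMZ380EA20, 18.1 for TMZ580EA20 and 17.2 for TMZ320EA35. Each of these values lay inside the counting interval of its library. The lone count of TMZ320EA35 gave a level below the value from the slopes, and its interval reached 27.0 CPM. The slopes were fitted to these same libraries, so these values describe the fit and do not test it.

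**Figure D3:**
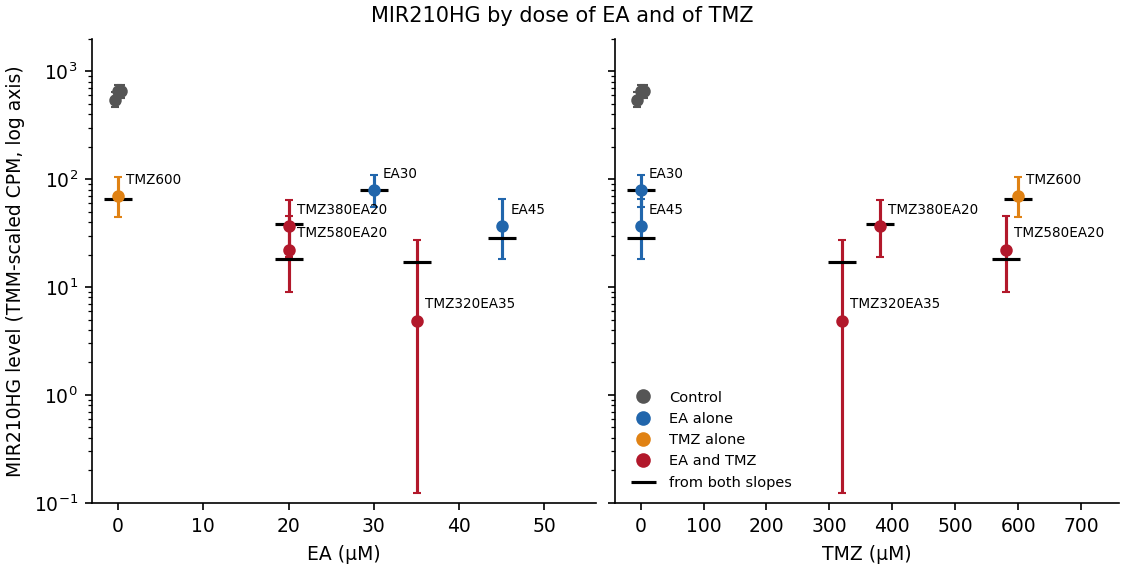
MIR210HG level in TMM-scaled CPM (log axis, 95% Poisson intervals) against the dose of EA (left) and of TMZ (right) in µM, with controls at 0 set slightly apart. Black bars are the control mean moved by both dose slopes, from 17.2 CPM in TMZ320EA35 to 79.5 in EA30, and each lies inside the interval of its library.

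The mitochondrial share of the counts moved with treatment, at 48.7 ± 0.340% (SD, n = 3) in the controls and between 51.7 and 58.7% in the 6 treated libraries. With mitochondrial transcripts left out before scaling, MIR210HG stood at 1133, 1371 and 1392 CPM of nuclear counts in the controls and between 10.5 and 173 in the treated libraries. The difference was about as large without them. Among the 12 markers of glioma and astroglia, 2 had a count. NES, which encodes the intermediate filament nestin of neural progenitors, had 706 of their 708 counts and TNC the other 2, in Control 3, while VIM, CD44, GFAP and SOX2 were listed at 0. NES held 152, 169 and 174 counts in the controls, 56 in EA30, 15 in EA45, 22 in TMZ320EA35, 44 in TMZ380EA20, 20 in TMZ580EA20 and 54 in TMZ600. Its treated libraries also all lay below the controls, as in 11.0% of the tested transcripts. The part of NES in the result for MIR210HG was not tested. Markers of leukocytes summed to 2 counts over the 9 libraries, those of fibroblasts to 9, those of endothelium to 1, and those of epithelium and of neurons to 0. Because genes that U-87 cells express were listed at 0 too, these zeros do not check the label. Of CDKN2A, CDKN2B and MTAP, all 3 known as deleted in U-87 MG, the first pair were listed at 0, and MTAP had 6 counts in all, against what is known of the line.

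Against all 618 tested transcripts the log2 fold change of MIR210HG was far below the median, which lay between -0.13 and 0.00 in the 6 treatments. It was the 2nd lowest in EA30, TMZ580EA20 and TMZ600, the 3rd lowest in EA45, the 4th in TMZ380EA20 and the 9th in TMZ320EA35. MIR210HG was chosen on these contrasts, so nothing is read from its ranks. The 6 comparisons share their 3 controls. Transcripts at 0 in a treated library have fitted values that depend on edgeR's prior count, so the ranks at the low end are not exact.

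**Figure D4:**
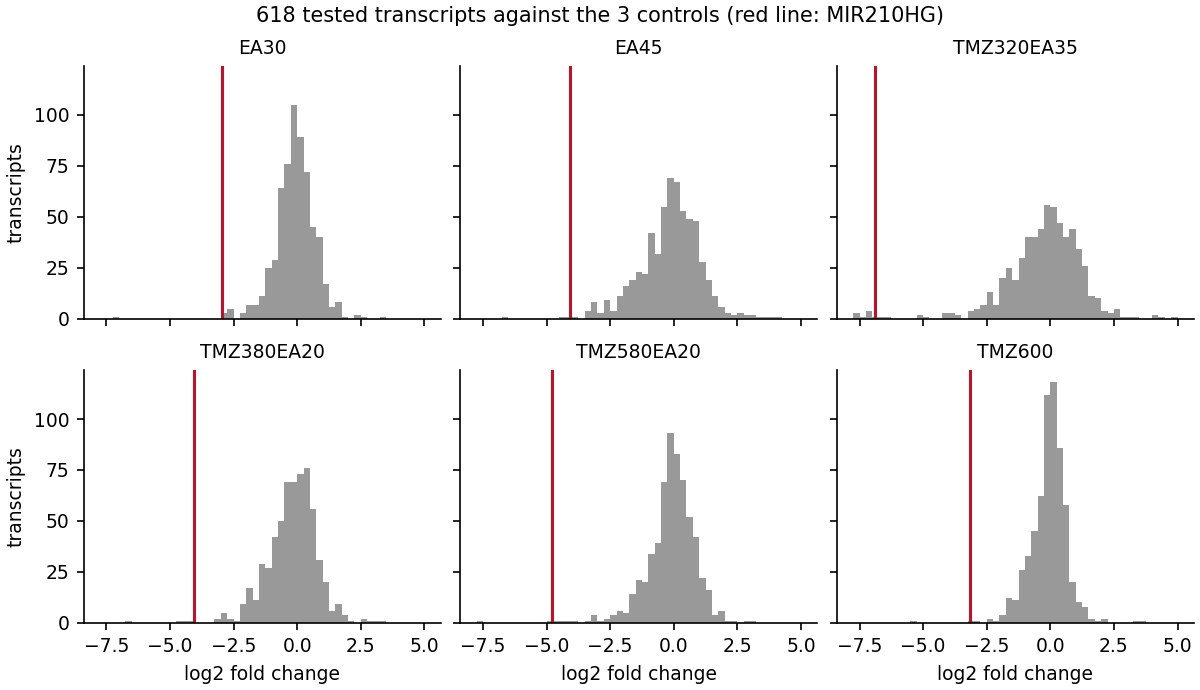
Number of tested transcripts by log2 fold change against the 3 controls in each of the 6 treatments, 618 transcripts a panel in bins of 0.25, with edgeR's prior count. The red line marks MIR210HG, which lies in the lower tail in each panel, among the 9 lowest of the 618. It was chosen on these contrasts, so its place is a description.

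Of the 17 genes within 100 kb of MIR210HG, 15 were listed and 2 had any count. LOC143666, a non-coding RNA gene upstream of MIR210HG, held 5, 9 and 12 counts in the controls and 2, 2, 1, 2, 1 and 3 in EA30, EA45, TMZ320EA35, TMZ380EA20, TMZ580EA20 and TMZ600. All 6 treated values were below all 3 controls, at a mean count below the minimum for testing. Among the tested transcripts, 11.0% had all 6 treated libraries below every control. DRD4, a dopamine receptor gene, held 1, 0 and 4 counts in the controls and 3, 0, 0, 1, 2 and 0 in the treated libraries in the same order, and the groups overlapped. Neighbours such as HRAS, RASSF7, PHRF1 and IRF7 were listed at 0 in every library.

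The HIF pathway itself was hardly measured. For genes with several listed transcripts, counts were summed, and how reads shared by transcripts were counted is not given. Levels of VHL, PDK1, PDK3, HILPDA, TFRC, MAFF, PTPN2 and NEAT1 are uncertain for this reason, and so are the zeros of genes such as HIF1A, EPAS1, LDHA, VEGFA, ISCU, SDHD, HRAS and CD44. Of 13 HIF factors and oxygen sensors, 2 had a count and 0 could be tested. VHL, the ubiquitin ligase subunit that marks HIF for degradation, was the only one with a mean of at least 1 count, at 2, 0 and 1 counts in the controls and between 0 and 5 in the treated libraries. HIF1A and EPAS1, the oxygen-regulated subunits, were listed at 0 in every library.

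Of 25 HIF targets of glucose metabolism, 6 had a count and 1, GBE1, the glycogen branching enzyme, could be tested. GBE1 held 14, 22 and 24 counts in the controls, 16 in EA30, 4 in EA45, 4 in TMZ320EA35, 5 in TMZ380EA20, 11 in TMZ580EA20 and 15 in TMZ600. After scaling the controls were at 47.8 to 78.6 CPM and the treated libraries at 13.3 to 43.5. GBE1 thus had all 6 treated libraries below every control, as did 11.0% of the tested transcripts. It was called lower in EA45, as were 19.3% of all tested transcripts, with a log2 fold change of -2.32 (SE 0.84, edgeR quasi-likelihood adjusted p = 0.0225). In TMZ380EA20, where 13.4% were called lower, it was lower by a log2 fold change of -2.13 (SE 0.80, edgeR adjusted p = 0.0426). Its EA slope of -0.43 per 10 µM (SE 0.13, edgeR adjusted p = 0.0250) also passed, in a term that called 13.4% of transcripts lower. It did not pass in the other 4 treatments, where edgeR adjusted p ran from 0.0832 to 0.623, with the 6 treatments as 1 group (adjusted p = 0.0901) or for the TMZ slope (adjusted p = 0.586). All 3 calls were lost without Control 2 and without Control 3, and with no filter on low counts. The EA slope was also lost without EA45 or TMZ600, both treatment calls with DESeq2's Wald test, and that in TMZ380EA20 with mitochondrial transcripts left out.

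PDK3 and PDK1, kinases that switch off pyruvate dehydrogenase, were below the minimum for testing. PDK3 held 14, 14 and 28 counts in the controls. It held 11 in EA30, 2 in EA45, 0 in TMZ320EA35, 6 in TMZ380EA20, 3 in TMZ580EA20 and 5 in TMZ600. These treated values all lay below the controls, as in 11.0% of the tested transcripts. PDK1 held 5, 3 and 2 counts in the controls and 13, 1, 0, 2, 0 and 3 in the treated libraries in the same order, and the groups overlapped. SLC2A1, LDHA and PGK1, a glucose transporter and glycolytic enzymes, were listed at 0.

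Of 43 other HIF targets, 41 were listed, 10 had a count and 0 could be tested. HILPDA, a lipid droplet protein, held 6, 11 and 14 counts in the controls and 0, 10, 1, 5, 10 and 5 in EA30, EA45, TMZ320EA35, TMZ380EA20, TMZ580EA20 and TMZ600. TFRC, the transferrin receptor, held 10, 4 and 7 in the controls and between 3 and 18 in the treated libraries. MAFF, a small Maf transcription factor, held 0, 2 and 5 against 1 to 9, and ZNF395, a transcription factor, 0, 1 and 0 against 0 to 3. The groups overlapped for all 4 genes. CA9, VEGFA and BNIP3 were listed at 0.

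Of 25 genes known as miR-210 targets, 24 were listed, 6 had a count and 0 could be tested. COX10, an assembly factor of cytochrome oxidase, held 1, 1 and 2 counts in the controls, 3 in EA30, 7 in TMZ600 and 0 in the other 4 treated libraries. PTPN2, a tyrosine phosphatase, held 7, 0 and 2 counts in the controls and between 0 and 9 in the treated libraries. ISCU and SDHD, of iron-sulfur cluster assembly and of complex II, were listed at 0. These targets were below the minimum for testing, so a change in either direction was not tested.

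Of 11 other hypoxia-linked non-coding RNAs, 10 were listed and NEAT1 alone had a count. NEAT1, the scaffold of nuclear paraspeckles, held 24, 23 and 16 counts in the controls on its listed transcripts and 25, 11, 8, 16, 21 and 27 in EA30, EA45, TMZ320EA35, TMZ380EA20, TMZ580EA20 and TMZ600. The groups overlapped, and the tested transcript was not called in any comparison, with edgeR adjusted p from 0.152 for the EA slope to 0.912 for the TMZ slope.

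Among 68 other microRNA host genes, 10 had a count and 1, MIR4458HG, could be tested. It held 98, 71 and 95 counts in the controls, 224 in EA30, 156 in EA45, 80 in TMZ320EA35, 128 in TMZ380EA20, 102 in TMZ580EA20 and 87 in TMZ600. After scaling the controls were at 254 to 335 CPM, EA30 at 504, EA45 at 518 and the other treated libraries at 252 to 389. EA30, EA45, TMZ320EA35 and TMZ380EA20 stood above all controls, and TMZ580EA20 and TMZ600 did not. It was called higher in EA30, as were 8.74% of all transcripts, by a log2 fold change of 0.76 (SE 0.23, edgeR adjusted p = 0.0148), and in EA45, as were 19.6%, by 0.80 (SE 0.24, edgeR adjusted p = 0.00590). Its EA slope was 0.19 per 10 µM (SE 0.057, edgeR adjusted p = 0.0266), in a term that called 14.1% higher. With plain totals in place of TMM and, for the treatments, with DESeq2's Wald test, these calls were lost. Without Control 2 the calls in EA30 and of the slope were lost, and the slope also with no filter and without Control 1, Control 3, EA45 or TMZ600. MIR4458HG was not called lower in any comparison.

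RefSeq lists 46623 other non-coding transcripts, of which 2486 had a count and 194 could be tested. In EA30, 13 were called higher and 16 lower (6.70 and 8.25%), beside 8.74 and 8.58% of all tested transcripts. In EA45, 37 were higher and 28 lower (19.1 and 14.4%), beside 19.6 and 19.3%, and in TMZ600 7 and 12 (3.61 and 6.19%), beside 4.37 and 5.5%. Calls thus fell on both sides with TMM scaling. In TMZ320EA35, 34 were higher and 43 lower (17.5 and 22.2%), beside 20.2 and 23.6%. In TMZ380EA20 the numbers were 19 and 24 (9.79 and 12.4%), beside 11.5 and 13.4%, and in TMZ580EA20 16 and 23 (8.25 and 11.9%), beside 11.3 and 11.8%. The shares of the non-coding transcripts were near those of all transcripts. With the 6 treatments as 1 group, 4 were higher and 6 lower (2.06 and 3.09%), beside 2.91 and 3.88%. The EA slope called 26 higher and 23 lower (13.4 and 11.9%), beside 14.1 and 13.4%, and the TMZ slope 2 and 6 (1.03 and 3.09%), beside 1.46 and 2.27%. The median log2 fold change of the 194 lay between -0.10 and -0.02 in the 6 treatments, beside -0.13 to 0.00 over all 618. With plain totals, calls over all 618 were mostly lower in EA30 (27 higher and 109 lower) and TMZ380EA20 (40 and 147). The EA slope then called 42 higher and 119 lower, while TMZ600 had 38 higher and 32 lower.

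Of the 194, 111 (57.2%) were called in at least 1 of the 9 comparisons, beside 62.0% of all tested transcripts. The 10 with the largest log2 fold change over the 6 treatments split evenly by direction. Among them VLDLR-AS1, LINC03032, XR_922175.3 and TLE6 were not called over the 6 treatments (edgeR adjusted p 0.0544 to 0.0805), only in other comparisons. DLGAP1-AS2 and LINC00668, long non-coding RNAs, were higher in all 6 treatments, DLGAP1-AS2 from 2, 6 and 8 counts in the controls to between 39 and 114, and LINC00668 from 32, 38 and 35 to between 83 and 662. VLDLR-AS1 (called in 4 treatments), LINC03032 (called in 5) and LOC105375892 (called in 4) were the other 3 with higher values. XR_002958529.1, XR_002958530.1 and XR_922175.3 were lower in all 6 treatments, SLC22A20P in 5 and TLE6 in 3. The largest fall of these over the 6 treatments, in SLC22A20P, was -2.48 (SE 0.68, edgeR adjusted p = 0.0424), beside -3.83 for MIR210HG. That call of SLC22A20P was lost without each control in turn, and also without EA30, EA45, TMZ380EA20, TMZ580EA20 or TMZ600. DLGAP1-AS2 (edgeR adjusted p = 0.00603) lost its call in that comparison without Control 1, and LINC00668 (edgeR adjusted p = 0.0267) without each control in turn. In the same comparison XR_002958529.1 was lost without Control 1, and XR_002958530.1 without each control in turn and without TMZ380EA20. LOC105375892 was lost there without each control in turn, without EA45 or TMZ380EA20, and with plain totals. Of the calls in single treatments, all 5 of SLC22A20P were lost without each control in turn, and all 3 of TLE6 without Control 3. That of TLE6 in TMZ380EA20 was also lost without Control 2, that of LINC03032 in EA30 without Control 1, and that of LOC105375892 in TMZ580EA20 without Control 1 and without Control 2. DESeq2's Wald test made none of the treatment calls of VLDLR-AS1 and TLE6, and of SLC22A20P it made only that in TMZ320EA35. Of the treatment calls of LINC03032 it made only that in EA45, and LOC105375892 was not called by it in TMZ380EA20 or TMZ580EA20. It also lost LINC00668 in TMZ600, XR_002958529.1 in TMZ580EA20, XR_002958530.1 in EA45 and XR_922175.3 in EA30. With no filter on low counts, calls were lost for SLC22A20P in EA30 and TMZ580EA20, TLE6 in TMZ320EA35 and TMZ380EA20, LINC03032 in EA30, and LOC105375892 and XR_002958529.1 in TMZ580EA20. Plain totals lost LINC03032 in EA30 and LOC105375892 in TMZ580EA20, and TLE6 was lost in TMZ380EA20 with mitochondrial transcripts left out. With a mean of at least 50 counts required, DLGAP1-AS2, VLDLR-AS1, LINC03032, LOC105375892, SLC22A20P and TLE6 could not be tested.

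The transcripts whose pattern over the 9 libraries was most like MIR210HG were found by Pearson's r of log2 (CPM + 1) with the other 617 tested. The 9 points are the same 3 controls and 6 treated libraries for every transcript, and r is given as a description, with no p. MIR210HG had its lowest level in TMZ320EA35, from 1 count (0.123 to 27.0 CPM), and this uncertain point enters every r. All its treated libraries lay below the controls. Transcripts picked by r tend to share or mirror both features, so nothing is read from their doing so. TNFRSF10D, a decoy receptor for the death ligand TRAIL, had the highest r, 0.984 (Spearman's rho 0.933). It held 1174, 1127 and 1194 counts in the controls, 795 in EA30, 416 in EA45, 139 in TMZ320EA35, 376 in TMZ380EA20, 309 in TMZ580EA20 and 429 in TMZ600. SOX4, a transcription factor of progenitor cells, had an r of 0.983 (rho 0.917), with 1148, 1234 and 1270 counts in the controls and 507, 142, 46, 234, 159 and 535 in the treated libraries in the same order. Both were lowest in TMZ320EA35, as MIR210HG was. All 6 treated libraries of both lay below every control, as in 11.0% of the tested transcripts.

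The next were XR_924269.2 (r = 0.962), SELENOW, a small selenoprotein (r = 0.952), and IFITM1, an interferon-induced membrane protein whose gene also lies in the first 1 Mb of chromosome 11 (r = 0.946). XR_924269.2 stood at 5131 ± 650 CPM (SD, n = 3) in the controls and between 577 and 2856 in the treated libraries. SELENOW stood at 310 ± 38.6 CPM (SD, n = 3) against 102 to 214, and IFITM1 at 958 ± 57.2 (SD, n = 3) against 179 to 563. IFITM1 has close copies beside it, IFITM2 among them, and how shared reads were counted is not given. In each of the 5, TMZ320EA35 was the lowest library. Over the 6 treated libraries alone, an alternative added after the data were seen, r for the 5 lay between 0.854 and 0.934. By Spearman's rho, 3 of the 5 (TNFRSF10D, SOX4 and SELENOW) were again among the 5 highest with ties included, and of the 3 lowest described next, 1 (NFX1) was among the 3 lowest.

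The lowest r belonged to NFX1, a zinc finger transcription factor (-0.961), TMEM33, a membrane protein of the endoplasmic reticulum (-0.941), and LOC105375892 (-0.940). NFX1 stood at 561 ± 44.2 CPM (SD, n = 3) in the controls and between 882 and 1464 in the treated libraries. TMEM33 stood at 329 ± 27.3 CPM (SD, n = 3) against 410 to 916, and LOC105375892 at 47.5 ± 5.66 (SD, n = 3) against 85.5 to 300.5. All 3 were highest in TMZ320EA35. Of the 617 transcripts, 15 had an r over 0.9 and 18 under -0.9, and the median r was 0.046.

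**Figure D5:**
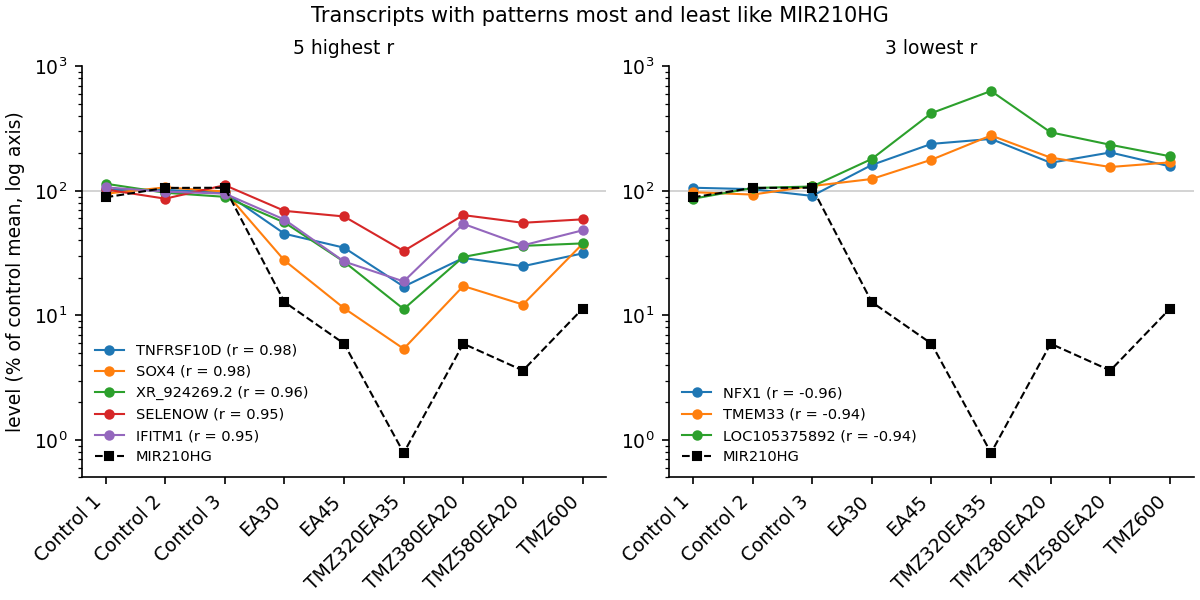
Level in each library as a percent of the control mean (log axis) for the 5 transcripts with the highest Pearson r with MIR210HG (left) and the 3 with the lowest (right), with MIR210HG as a dashed line. In the left panel all lines reach their lowest point in TMZ320EA35, and MIR210HG stays below the others in every treated library.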

How the data were processed

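The deposited table gives raw counts of reads for each RefSeq transcript in 9 libraries of 3′ mRNA sequencing. The submitters' processing notes name HISAT2, HTSeq and hg38, and versions, strand setting and overlap rule are not given in the sources used here. Groups and doses came from the sample labels. Transcripts were named from RefSeq (GRCh38.p14), 57755 by accession and version and 56301 by accession alone, and 45011 with 4.63% of the counts had no match. All 9 libraries were fitted with edgeR 4.0.16 (quasi-likelihood F-test, TMM, R 4.3.3) on the 618 transcripts whose mean count was 10 or more, with 1 coefficient per condition, with the 6 treatments as 1 group, and with slopes per 10 µM EA and per 100 µM TMZ. Benjamini-Hochberg adjustment ran over all 618, and the threshold was 0.05. Poisson intervals and ratio intervals (conditional binomial, exact) have 95% confidence and were computed with scipy 1.17.1 in Python 3.11.15. The members and lists were chosen with earlier results of these data known. Named genes were list members called in any comparison (the 10 with the largest change over the 6 treatments where a list had more), HIF and miR-210 list members and neighbours within 100 kb with a mean of at least 1 count, other host genes with a mean of at least 10, and the 5 highest and 3 lowest r. The lists were HIF factors and oxygen sensors, HIF targets (glucose metabolism and other), hypoxia-linked non-coding RNAs, miR-210 targets, microRNA host genes, RefSeq non-coding transcripts, neighbours, and cell type markers. Alternatives were DESeq2 (1.42.0) size factors and Wald test, other scalings, other filters and leaving out each library. The fits were tested on simulated data. The single treatments recovered 50 to 62.1% of 2-fold changes and 90.7 to 99% of 4-fold changes. The other fits recovered 74.7 to 88% of 2-fold changes. All simulations used the spread of the fit with 1 coefficient per condition, a biological coefficient of variation of 0.166. In the data it was 0.334 with the 6 treatments as 1 group and 0.269 with the dose slopes. The simulated recovery of those fits therefore does not show their power in these data. False calls were highest in TMZ380EA20 (5.37%) and TMZ580EA20 (6.13%).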

Additional observations from a re-analysis of the deposited data

How the results depend on the processing

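The log2 fold changes and slopes of MIR210HG stayed below 0 under every alternative run. Plain totals in place of TMM moved its log2 fold change to -3.23 in EA30, -4.31 in EA45, -7.16 in TMZ320EA35, -4.36 in TMZ380EA20, -4.98 in TMZ580EA20 and -4.00 with the 6 treatments as 1 group, because that scaling shifts every transcript by -0.28 to 0.06. It put TMZ380EA20 at 32.7 CPM and TMZ600 at 78.9. With mitochondrial transcripts left out the levels were 1133, 1371, 1392, 173, 81.5, 10.5, 83.2, 47.9 and 146 CPM in Control 1 to 3, EA30, EA45, TMZ320EA35, TMZ380EA20, TMZ580EA20 and TMZ600, since the total is then smaller. Without each library in turn the change over the 6 treatments lay between -4.13 and -3.62. Counts of called transcripts moved with the tool and, for the 6 treatments as 1 group and the slopes, with the library left out. DESeq2's Wald test called 42 in EA30, 114 in EA45, 151 in TMZ320EA35, 63 in TMZ380EA20, 55 in TMZ580EA20, 26 in TMZ600, 92 over the 6 treatments and 43 for the TMZ slope, against 107, 240, 271, 154, 143, 61, 42 and 23 with edgeR, and the cause was not tested. For the EA slope the Wald test called 193, against 170 with edgeR. With no filter 102 were called in TMZ380EA20 and 93 in TMZ580EA20, with more transcripts tested. Without each library in turn the 6 treatments called 12 to 64, the EA slope 61 to 195 (170 with all) and the TMZ slope 7 to 36. The fewest were called without Control 1, EA45 and Control 2, respectively. Plain totals for these counts, added after the data were seen, lowered the share of higher calls from 50.5 to 19.9% in EA30, 50.4 to 35.2% in EA45, 46.1 to 21.4% in TMZ380EA20, 49.0 to 27.9% in TMZ580EA20, 42.9 to 25.9% over the 6 treatments and 51.2 to 26.1% for the EA slope, and raised it from 44.3 to 54.3% in TMZ600. No paired analysis was possible because each treatment has 1 library, and the numbers of the controls pair nothing. The depth limits the treated levels of MIR210HG, which rest on 1 to 35 counts. HIF factors and miR-210 targets were below the minimum count for testing, and why their counts were low was not tested.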
